A study of Mus musculus with 4 samples.

Results

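The genes described here are 9 feedback inhibitors of mitogen-activated protein kinase (MAPK) signalling, the dual-specificity phosphatases Dusp1, Dusp2, Dusp4, Dusp5, Dusp6 and Dusp10, the Sprouty genes Spry1 and Spry2, and Spred1. They were taken by gene symbol, and each symbol matched 1 of the 56941 features of the deposited files. They were chosen by their KO over WT ratios in the leukaemia libraries, so those ratios are a description and carry no test.

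The study sequenced RNA of single cells captured in droplets from mouse bone marrow, in 4 libraries with 1 for each group. The KO MLL-AF9 and WT MLL-AF9 libraries hold leukaemia cells driven by the fusion of MLL and AF9, a frequent driver of acute myeloid leukaemia, taken at the endpoint of a primary transplantation from Rbm5 knockout and wild-type leukaemia. The KO c-Kit+ and WT c-Kit+ libraries hold normal marrow labelled for c-Kit, a growth factor receptor of blood stem cells and their early progeny, of Rbm5 knockout and wild-type origin. The question was what the loss of Rbm5, a splicing factor, does to expression in leukaemia and in normal progenitors. Strain, age, the deleted part of Rbm5, how it was deleted, the number of mice behind a library and whether leukaemia cells were parted from the host's own marrow are not given in the sources used here.

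Growth factors, cytokines and bacterial products switch on the MAPK cascades, which end in the kinases ERK, JNK and p38. The cascades also switch on their own brakes: the nuclear phosphatases Dusp1, Dusp2, Dusp4 and Dusp5 are made within minutes to hours of a signal and take the activating phosphates off the kinases, Dusp6 does so for ERK in the cytoplasm, and Dusp10 acts on JNK and p38. Sprouty and Spred proteins act further up, where receptors signal through RAS to RAF. In myeloid cells these genes are known as markers of recent ERK, JNK or p38 activity and, for Dusp1, as a limit on inflammatory gene expression.

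The promoters of 3 phosphatase genes and of Spred1 are shown because these 4 genes have the 3 highest and the lowest KO over WT log2 ratio in leukaemia. The sequences are from RefSeq (GRCm38.p6), run from 250 bases before to 50 bases after the start of transcription, and read 5′ to 3′ on the strand of the gene. Capitals mark the cyclic AMP response element (CRE, TGACGTCA) and the E-box (CACGTG) in Dusp1, the E-box in Dusp2 and a pair of adjoining CArG boxes, the site that serum response factor binds, in Dusp5. The Spred1 window has no match and is all in lower case. The windows lie at chr17:26508423-26508722 on the minus strand for Dusp1, chr2:127335909-127336208 on the plus strand for Dusp2, chr19:53528895-53529194 on the plus strand for Dusp5 and chr2:117120821-117121120 on the plus strand for Spred1.
Dusp1: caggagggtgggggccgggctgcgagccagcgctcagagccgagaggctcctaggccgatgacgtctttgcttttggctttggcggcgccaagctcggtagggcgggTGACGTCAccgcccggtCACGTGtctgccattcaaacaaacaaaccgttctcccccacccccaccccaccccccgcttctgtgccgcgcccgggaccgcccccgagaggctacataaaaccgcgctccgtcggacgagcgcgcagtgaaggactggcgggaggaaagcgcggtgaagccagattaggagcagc
Dusp2: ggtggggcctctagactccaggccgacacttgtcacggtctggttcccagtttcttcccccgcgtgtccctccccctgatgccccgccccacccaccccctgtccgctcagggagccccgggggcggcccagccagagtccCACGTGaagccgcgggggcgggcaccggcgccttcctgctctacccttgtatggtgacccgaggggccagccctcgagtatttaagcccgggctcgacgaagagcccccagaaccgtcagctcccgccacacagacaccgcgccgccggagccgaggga
Dusp5: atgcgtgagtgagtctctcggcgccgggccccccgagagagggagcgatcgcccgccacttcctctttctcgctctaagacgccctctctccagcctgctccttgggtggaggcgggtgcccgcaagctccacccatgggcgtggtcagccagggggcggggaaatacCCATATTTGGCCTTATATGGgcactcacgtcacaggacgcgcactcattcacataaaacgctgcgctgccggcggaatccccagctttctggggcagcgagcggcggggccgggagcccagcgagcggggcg
Spred1: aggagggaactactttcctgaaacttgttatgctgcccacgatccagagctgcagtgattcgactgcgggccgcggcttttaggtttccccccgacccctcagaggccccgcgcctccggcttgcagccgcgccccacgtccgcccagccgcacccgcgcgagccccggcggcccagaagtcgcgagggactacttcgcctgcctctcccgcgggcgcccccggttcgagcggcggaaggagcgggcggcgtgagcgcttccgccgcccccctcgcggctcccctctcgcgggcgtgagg

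Of the 9 genes, 8 had a window in that table and Dusp4 had none. The CRE of Dusp1 lies at bases -143 to -136 and its E-box at -126 to -121, counted from the start site. The E-box of Dusp2 lies at -109 to -104. The CArG boxes of Dusp5 are CCATATTTGG at -82 to -73 and CCTTATATGG at -72 to -63. Among all 32851 windows of the same length, searched on both strands, 1.79% held a CRE, 7.15% an E-box and 1.63% a CArG box. The CRE half-site TGACG, which is contained in the full CRE, was in the windows of Dusp1, Dusp2 and Dusp5 and in 20.8% of all windows. No match was found in the 8 windows for the AP-1 letters TGANTCA (7.81% of all windows), the ETS letters CCGGAAGT (3.89%), the EGR letters GCGTGGGCG (0.612%), the NF-kappaB site (4.51%) or TATAAA (13.6%). A match is a run of letters and not a measured binding site.

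Library values that touch the results were as follows. Cells were kept with at least 500 genes, 1000 UMIs (unique molecular identifiers, each counting 1 captured RNA molecule) and no more than 10% mitochondrial UMIs. That left 11778 KO MLL-AF9, 13177 WT MLL-AF9, 13708 KO c-Kit+ and 12948 WT c-Kit+ cells, with 93004538 to 101255178 UMIs per library and medians of 5352 to 7420.5 UMIs per cell. Pairs of libraries shared 40 to 59 barcodes. The KO MLL-AF9 library stood apart in 14 immediate early genes other than the 9 members, such as Fos, Jun and Egr1, which respond within minutes to stimuli and to handling. Their summed level was 16161 CPM (UMIs scaled to the same sum in every library) in KO MLL-AF9 cells, against 625 in WT MLL-AF9, 2714 in KO c-Kit+ and 3154 in WT c-Kit+ cells. Heat shock genes were at 2275 to 3154 CPM and mitochondrial UMIs at 0.687% to 1.02% in the 4 libraries. Rbm5 itself had 11700 UMIs in KO MLL-AF9 and 14927 in WT MLL-AF9 cells, and 9056 in KO c-Kit+ and 7078 in WT c-Kit+ cells. These 3′ tags check nothing if they lie outside the deleted part, so KO and WT stand throughout for the libraries labelled so. Kit had UMIs in 18.1% of KO c-Kit+ and 17.3% of WT c-Kit+ cells, against 16.7% of KO MLL-AF9 and 26.1% of WT MLL-AF9 cells. By marker genes, 37.8% of KO c-Kit+ and 39.6% of WT c-Kit+ cells fell with secondary granule neutrophils and 2.73% of KO c-Kit+ and 2.20% of WT c-Kit+ cells with immature cells, so most cells of the libraries labelled c-Kit+ did not lead with the markers of immature cells.

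In the leukaemia libraries, 8 of the 9 genes were higher in KO MLL-AF9 than in WT MLL-AF9 cells and Spred1 was lower. The differences ran from 50.2-fold for Dusp1 to 1.19-fold for Spry2. On the log2 scale of CPM plus 1, 6 genes were higher by 2-fold or more (Dusp1, Dusp2, Dusp5, Dusp6, Dusp10 and Spry1) and 1 was lower (Spred1). Among the 9901 genes averaging at least 5 CPM in the pair, 5.5% were higher and 12.6% lower by that much. Since the members were chosen with this contrast known, nothing is read from their count. Of the 9, 7 reached that mean, and Dusp4 and Spry1 did not. Dusp2 (4.58 CPM in WT) and Dusp10 (2.59 CPM in WT) reached it through the KO library. The median log2 ratio was 1.78 over the 9 genes and -0.38 over all genes. With 1 library per group there is no replicate, and the intervals below are exact 95% intervals that cover counting error only.

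**Figure D1:**
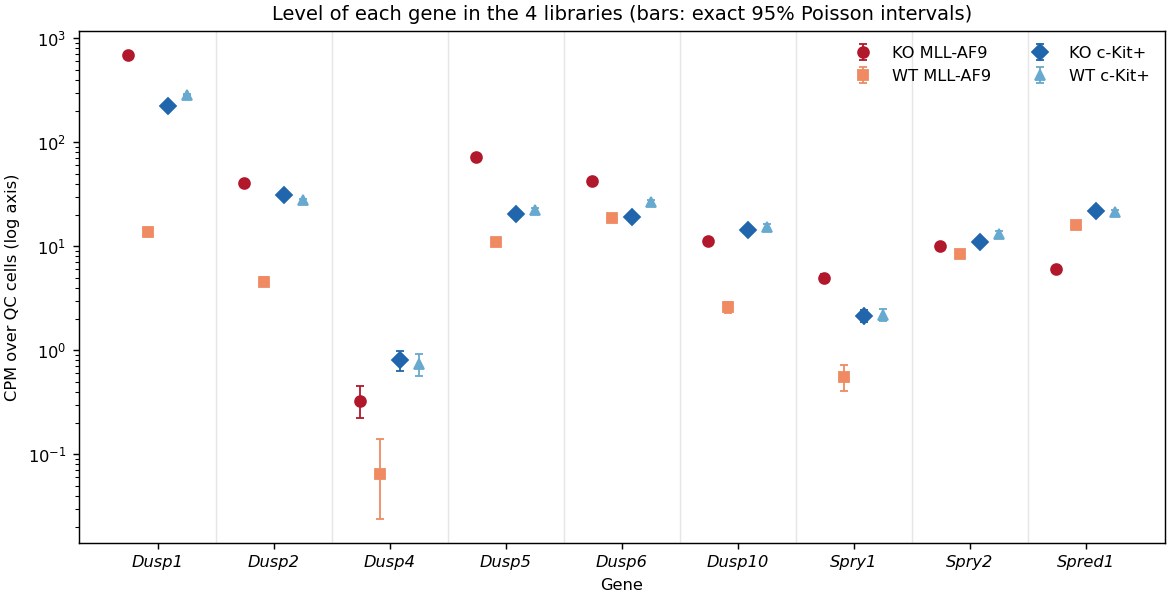
Level of each of the 9 genes in the 4 libraries, in CPM over kept cells on a log axis, with exact 95% Poisson intervals. WT MLL-AF9 (squares) is the lowest library for every gene but Spred1, for which KO MLL-AF9 (circles) is the lowest at 6.005 CPM.

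Dusp1 codes for the phosphatase of p38, JNK and ERK that is induced in nearly every cell type by stress and growth factors (ENSMUSG00000024190, chromosome 17, 26505590 to 26562128, minus strand, GRCm38). It was at 693 CPM in KO MLL-AF9 cells (70179 UMIs), against 13.8 CPM in WT MLL-AF9 cells (1285 UMIs), and at 224 CPM in KO c-Kit+ and 286 CPM in WT c-Kit+ cells. Over all kept cells the KO leukaemia library was thus the highest of the 4 and the WT leukaemia library the lowest, with both normal libraries between them. Within 8 groups of cells set by lineage markers, KO MLL-AF9 was the highest library in 5. In the immature group Dusp1 was at 520 CPM in KO MLL-AF9, 600 in KO c-Kit+ and 622 in WT c-Kit+ cells. The ratio between the leukaemia libraries was 50.2 (47.5 to 53.05), the 9th highest log2 ratio (5.55) of the 9901 genes. With each cell thinned to 2000 UMIs, 55.0% of KO MLL-AF9 cells had a Dusp1 UMI, against 3.28% of WT MLL-AF9, 25.2% of KO c-Kit+ and 31.1% of WT c-Kit+ cells. Without thinning the shares were 78.7% of KO MLL-AF9, 7.15% of WT MLL-AF9, 46.8% of KO c-Kit+ and 53.8% of WT c-Kit+ cells. A cell with the transcript held on average 7.57 UMIs of it in KO MLL-AF9, 1.36 in WT MLL-AF9, 3.53 in KO c-Kit+ and 3.84 in WT c-Kit+. The gene model overlaps AC122252.4 and AC122252.1 on the same strand, so counts in the shared stretch are uncertain.

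Dusp2, a nuclear phosphatase found mainly in blood cells (ENSMUSG00000027368, chromosome 2, 127336159 to 127338376), was at 40.2 CPM in KO MLL-AF9 cells, 4.58 in WT MLL-AF9, 31.2 in KO c-Kit+ and 27.6 in WT c-Kit+ cells. Its leukaemia ratio was 8.77 (7.94 to 9.72). Over all cells, KO leukaemia cells were nearer to the normal libraries than to WT leukaemia cells in this gene. Within 8 groups of cells set by lineage markers, however, Dusp2 was higher in KO MLL-AF9 than in KO c-Kit+ cells in 4 and lower in 4. These log2 ratios ran from -2.55 to 2.11. Dusp5, the nuclear phosphatase that acts on ERK alone (ENSMUSG00000034765, chromosome 19, 53529109 to 53542431), was at 71.9 CPM in KO MLL-AF9, 11.01 in WT MLL-AF9, 20.4 in KO c-Kit+ and 22.4 in WT c-Kit+ cells. Its leukaemia ratio was 6.53 (6.11 to 6.97), and here the KO library lay well above each of the other 3. A Dusp5 UMI was found in 14.4% of thinned KO MLL-AF9 cells, against 2.76% of WT MLL-AF9, 3.90% of KO c-Kit+ and 3.95% of WT c-Kit+ cells.

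Dusp4, the nuclear relative of Dusp1 (ENSMUSG00000031530, chromosome 8, 34807297 to 34819894), was close to the detection limit. It had 33 UMIs (0.326 CPM) in KO MLL-AF9, 6 (0.0645 CPM) in WT MLL-AF9, 81 (0.801 CPM) in KO c-Kit+ and 69 (0.736 CPM) in WT c-Kit+ cells. The leukaemia ratio was 5.05 with a wide interval (2.09 to 14.7), and the log2 ratio with 1 CPM added was 0.32. With all kept cells summed, both leukaemia libraries were below both normal libraries in this gene. Within the 8 groups of cells set by lineage markers, KO MLL-AF9 was the highest library in 3. These rest on few UMIs, such as 9 in the conventional dendritic and 9 in the T or NK group.

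Dusp6, the cytoplasmic ERK phosphatase whose transcript follows ERK activity (ENSMUSG00000019960, chromosome 10, 99263231 to 99267489), was at 42.5 CPM in KO MLL-AF9, 18.6 in WT MLL-AF9, 19.2 in KO c-Kit+ and 26.6 in WT c-Kit+ cells. The leukaemia ratio was 2.29 (2.16 to 2.42), and the counting intervals of WT MLL-AF9 and KO c-Kit+ cells overlapped. With 8 groups of cells set by lineage markers given the same weights in both libraries the log2 ratio was 0.95, against 1.15 as measured. Dusp10, which acts on JNK and p38 (ENSMUSG00000039384, chromosome 1, 184013302 to 184075636), was at 11.3 CPM in KO MLL-AF9, 2.59 in WT MLL-AF9, 14.3 in KO c-Kit+ and 15.5 in WT c-Kit+ cells. The leukaemia ratio was 4.37 (3.81 to 5.05). Unlike Dusp1 and Dusp5, Dusp10 was not higher in KO MLL-AF9 cells than in the normal libraries when all kept cells were summed. Within the 8 groups, KO MLL-AF9 was the highest library for Dusp10 in 2, the monocytic and primary granule groups. In the monocytic group the levels were 33.3 CPM in KO MLL-AF9, 16.7 in KO c-Kit+ and 17.5 in WT c-Kit+ cells.

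The inhibitors on the RAS side did not move together. Spry1 (ENSMUSG00000037211, chromosome 3, 37639947 to 37644598) was low everywhere, with 4.98 CPM in KO MLL-AF9, 0.548 in WT MLL-AF9, 2.16 in KO c-Kit+ and 2.20 in WT c-Kit+ cells. Its leukaemia ratio was 9.08 (6.80 to 12.4). Spry2 (ENSMUSG00000022114, chromosome 14, 105891947 to 105896819, minus strand) was at 10.09 CPM in KO MLL-AF9, 8.45 in WT MLL-AF9, 10.9 in KO c-Kit+ and 13.2 in WT c-Kit+ cells, a leukaemia ratio of 1.19 (1.09 to 1.31). As a ratio of the highest to the lowest library, its range was the narrowest of the 9 genes.

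Spred1, which holds the RAS inhibitor neurofibromin at the membrane (ENSMUSG00000027351, chromosome 2, 117121374 to 117182279), went the other way. It was at 6.005 CPM in KO MLL-AF9, 16.1 in WT MLL-AF9, 22.0 in KO c-Kit+ and 21.2 in WT c-Kit+ cells. KO leukaemia cells were below the other 3 libraries, with a ratio of 0.373 (0.339 to 0.410) to WT leukaemia cells and a log2 ratio of -1.29. The median of all genes was -0.38. With median-ratio size factors, which bring that median to -0.04, the log2 ratio of Spred1 was -0.96 and not past 2-fold.

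The share of cells with transcripts of several members was highest in KO MLL-AF9. The genes were chosen by their leukaemia ratios, so a higher share in KO than in WT MLL-AF9 cells follows from that choice. Dusp1 alone was seen in 55.0% of thinned KO and 3.28% of thinned WT MLL-AF9 cells. At 2000 UMIs per cell, 19.5% of KO MLL-AF9 cells had UMIs of 2 or more of the 9 genes, against 1.51% of WT MLL-AF9, 9.01% of KO c-Kit+ and 9.79% of WT c-Kit+ cells. None of the 9 was seen in 33.9% of KO MLL-AF9 cells, 84.5% of WT MLL-AF9, 63.7% of KO c-Kit+ and 57.8% of WT c-Kit+ cells. Thinning left out 514 shallower cells of KO MLL-AF9, 1190 of WT MLL-AF9, 1781 of KO c-Kit+ and 1432 of WT c-Kit+.

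**Figure D2:**
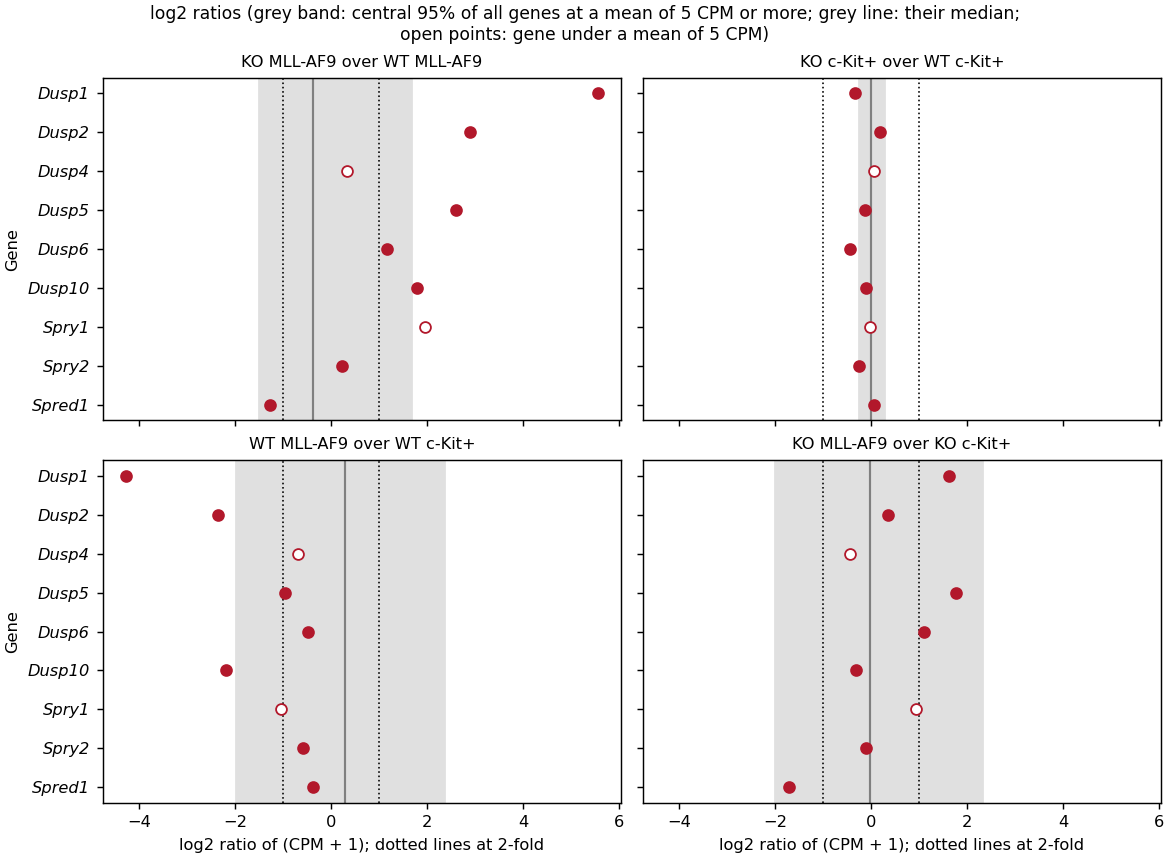
log2 ratio of each gene in the 4 comparisons, with the central 95% of all genes averaging at least 5 CPM as a grey band, their median as a grey line and dotted lines at 2-fold. Dusp1 is at 5.55 in KO over WT MLL-AF9 and at -4.27 in WT MLL-AF9 over WT c-Kit+, outside the band in each.

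Between the normal libraries the same genes differed little. None of the 9 was past 2-fold in KO c-Kit+ against WT c-Kit+ cells, where 0.0628% of 9555 genes were higher and 0.0314% lower by that much. The spread over all genes was narrow in this pair, with a standard deviation of the log2 ratio of 0.15 and a central 95% from -0.26 to 0.29. Dusp6 (-0.45) and Dusp1 (-0.35) lay below that range. The ratio was 0.724 (0.682 to 0.769) for Dusp6, the 42nd lowest of the 9555 genes, and 0.784 (0.770 to 0.798) for Dusp1, the 102nd lowest. Spry2 had a ratio of 0.830 (0.764 to 0.901) and Dusp2, the gene of the set with the highest ratio, 1.13 (1.07 to 1.19). The ratios of Dusp5 (0.909) and Dusp10 (0.925) were also below 1, and the intervals of Dusp4 (0.780 to 1.52), Spry1 (0.808 to 1.19) and Spred1 (0.974 to 1.10) included 1. The summed immediate early genes were lower as well, at 2714 CPM in KO c-Kit+ and 3154 CPM in WT c-Kit+ cells, and their part in these ratios was not tested.

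With all kept cells summed, the WT leukaemia library was lower than the WT c-Kit+ library in each of the 9 genes. Spred1, however, was higher with equal weight per cell or thinned cells (log2 ratio up to 0.13) and in 5 of 10 marker gates. By 2-fold or more on the log2 scale, 4 were lower (Dusp1, Dusp2, Dusp10 and Spry1) and none was higher. Spry1 was not past 2-fold with 5 CPM added, equal weight per cell or thinned cells (to -0.38). Among the 10036 genes averaging at least 5 CPM in this pair, 5.89% were lower and 16.4% higher by that much. Of the 9 genes, 7 reached that mean, and 3 of these were lower by 2-fold or more. Dusp4 and Spry1 did not reach it. The median over the 9 genes was -0.97, and over all genes it was 0.28. Dusp1 had a log2 ratio of -4.27, the 15th lowest of all genes, with 13.8 CPM in WT MLL-AF9 and 286 CPM in WT c-Kit+ cells, a level 20.7-fold (19.5 to 21.9) higher in the normal cells. Dusp2 was 6.025-fold and Dusp10 5.98-fold higher in the WT c-Kit+ library. Within the 10 marker gates (groups of cells set by lineage markers) that both WT libraries filled, Dusp1, Dusp2 and Dusp10 were lower in WT MLL-AF9 cells in 10 of 10, as were 2.6% of all genes, and 0 members were higher in each, against 11.4% of all genes. Dusp4, at 0 UMIs in 9 of the 10 WT MLL-AF9 gates, is not counted here. Dusp2 (4.58 CPM in WT MLL-AF9) and Dusp10 (2.59 CPM in WT MLL-AF9) reached the mean of 5 CPM through the WT c-Kit+ library. The WT MLL-AF9 levels are also part of the ratios by which the genes were chosen, so nothing is read from these counts. Dusp5 and Spry1 were higher in WT MLL-AF9 cells in 3 of 10 gates each, and Dusp6 and Spry2 in 2 of 10 each. For Dusp5 these were the primary granule (4.30 against 3.38 CPM in WT c-Kit+), secondary granule (7.32 against 5.34) and late neutrophil gates (16.9 against 15.4). Of the 2105 Dusp5 UMIs of WT c-Kit+ cells, 746 lay in the basophil or mast gate, which held 3 WT MLL-AF9 cells. Dusp5 had a log2 ratio of -0.97 over all cells, Dusp6 -0.49, Spry2 -0.58 and Spred1 -0.38. The immediate early sum of 625 CPM in WT MLL-AF9 against 3154 CPM in WT c-Kit+ cells moved the same way, and its part in the result was not tested.

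The KO leukaemia library compared with the KO c-Kit+ library gave a mixed picture. Past 2-fold, 3 genes were higher (Dusp5, Dusp1 and Dusp6, with log2 ratios of 1.77, 1.63 and 1.11) and Spred1 was lower at -1.71, where 12.7% of 9668 genes were higher and 12.6% lower. Dusp6 was not past 2-fold with 5 CPM added, equal weight per cell or thinned cells (lowest 0.72). Spry1 followed at 0.92 and Dusp2 at 0.35, while Spry2 (-0.10), Dusp10 (-0.31) and Dusp4 (-0.44) were lower. With equal weight per cell Dusp2 was at -0.12. Within 8 gates, Dusp6 was higher in KO MLL-AF9 than in KO c-Kit+ cells in 8 of 8, as were 9.63% of all genes, and Spred1 was lower in 8 of 8, as were 8.67% of all genes. The 4 comparisons share libraries, each library standing in 2 of them, so they are not independent of each other.

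Cells were then sorted by marker genes, 1 set per lineage, with a cell given to the set whose markers it expressed most strongly relative to the mean of all cells, and only with UMIs of 3 or more of them. These gates are marker groups and not verified cell types. Gates of at least 50 cells in both leukaemia libraries numbered 8, namely the primary granule (1891 KO and 3026 WT cells), secondary granule (4905 KO, 3095 WT) and late neutrophil (2278 KO, 1799 WT), monocytic (1278 KO, 2660 WT), conventional dendritic (94 KO, 330 WT), erythroid (257 KO, 91 WT), T or NK (120 KO, 120 WT) and immature gates (880 KO, 1638 WT). Xcr1, the marker of cross-presenting dendritic cells, was at 0 in the conventional dendritic gate of both. In the immature gate of the leukaemia libraries, where Meis1 and Mecom are expressed throughout the library, 6 of 7 markers in KO and 5 of 7 in WT were raised 1.5-fold over the remaining cells.

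**Figure D3:**
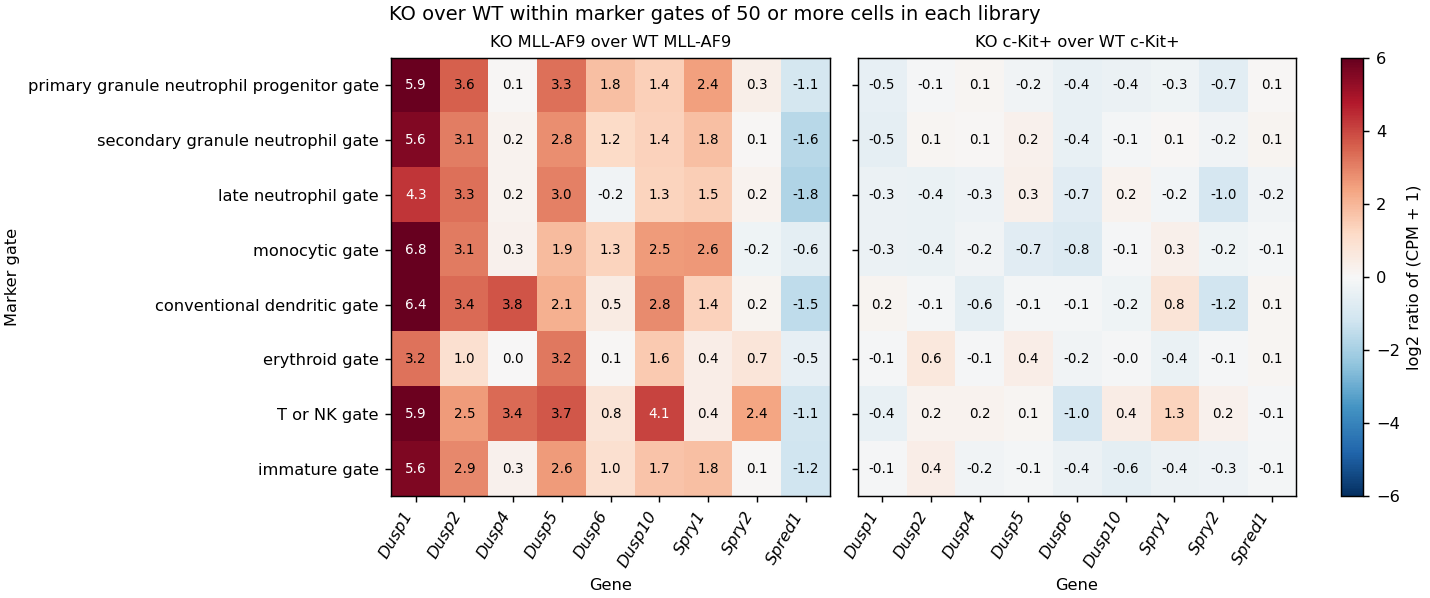
log2 ratio of KO over WT for each gene within marker gates, in MLL-AF9 (left) and c-Kit+ libraries (right), with the value printed in each square. In leukaemia the Dusp1 column runs from 3.24 to 6.76 and the Spred1 column from -1.79 to -0.50, while most c-Kit+ squares lie near 0.

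Within the gates the leukaemia ratio, by which the genes were chosen, had the following values. Dusp1, Dusp2, Dusp5 and Dusp10 were higher in KO than in WT MLL-AF9 cells in 8 of 8 gates, as were 7.32% of the 9901 genes. Spry1, which is not among those 9901, was also higher in 8 of 8, with 2 UMIs in KO and 1 in WT cells of the T or NK gate. Free RNA in the droplets can add UMIs in every gate, and its part in the gate values was not tested. The log2 ratios ran from 3.24 to 6.76 for Dusp1, from 0.97 to 3.57 for Dusp2, from 1.91 to 3.75 for Dusp5, from 1.33 to 4.06 for Dusp10 and from 0.38 to 2.59 for Spry1. Dusp6 and Spry2 were higher in 7 gates each, with medians of 0.88 and 0.18. Spred1 was lower in 8 of 8 gates, but so were 36.1% of all genes, and the median of all genes lay between -0.39 and -0.23 in the gates.

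Dusp1 differed most in the monocytic gate, at 1347 CPM in KO against 11.4 CPM in WT MLL-AF9 cells, a ratio of 118 (103 to 135). It differed least in the erythroid gate, at 296 CPM in KO against 30.5 CPM in WT, a ratio of 9.72 (6.68 to 14.7). In the late neutrophil gate, the highest for Dusp1 in either leukaemia library, the levels were 1461 CPM in KO and 74.5 CPM in WT MLL-AF9 cells. At 2000 UMIs per cell, 82.8% of KO and 12.6% of WT cells of that gate had a Dusp1 UMI. The lowest shares of any gate were 30.99% in the erythroid gate of KO cells and 1.18% in the primary granule gate of WT cells, with median depths of 9544 and 9201 UMIs before thinning. In the T or NK gate, whose cells express T cell receptor or NK genes, Dusp1 was at 638 CPM in KO and 9.86 CPM in WT MLL-AF9 cells, and at 574 CPM in KO and 784 CPM in WT c-Kit+ cells. WT MLL-AF9 was the lowest of the 4 libraries in 8 of 8 gates for Dusp1, Dusp2 and Dusp10. The share of all genes with that order was not worked out, so nothing is read from this count.

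The gate order of the immediate early sum was close to that of Dusp1 but not the same. In KO MLL-AF9 cells the late neutrophil, monocytic and conventional dendritic gates were the highest for both, in a different order. The primary granule and erythroid gates were the lowest for both. The sum was lowest in the erythroid gate (3445 CPM) and highest in the monocytic gate (25364 CPM), with 21772 CPM in the conventional dendritic gate. In the T or NK gate it was 13432 CPM in KO and 603 CPM in WT MLL-AF9 cells. In the late neutrophil gate, the highest for Dusp1, it was 20681 CPM in KO MLL-AF9 cells. In WT MLL-AF9 cells it was also highest in that gate (1333 CPM). The WT MLL-AF9 erythroid gate had a sum of 412 CPM with Dusp1 at 30.5 CPM, and the monocytic gate 808 CPM with Dusp1 at 11.4 CPM. Over the 8 gates the sum spanned 387 to 1333 CPM in WT MLL-AF9, 1134 to 8223 CPM in KO c-Kit+ and 1216 to 8617 CPM in WT c-Kit+ cells. Its part in the differences of the 9 genes was not tested.

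**Figure D4:**
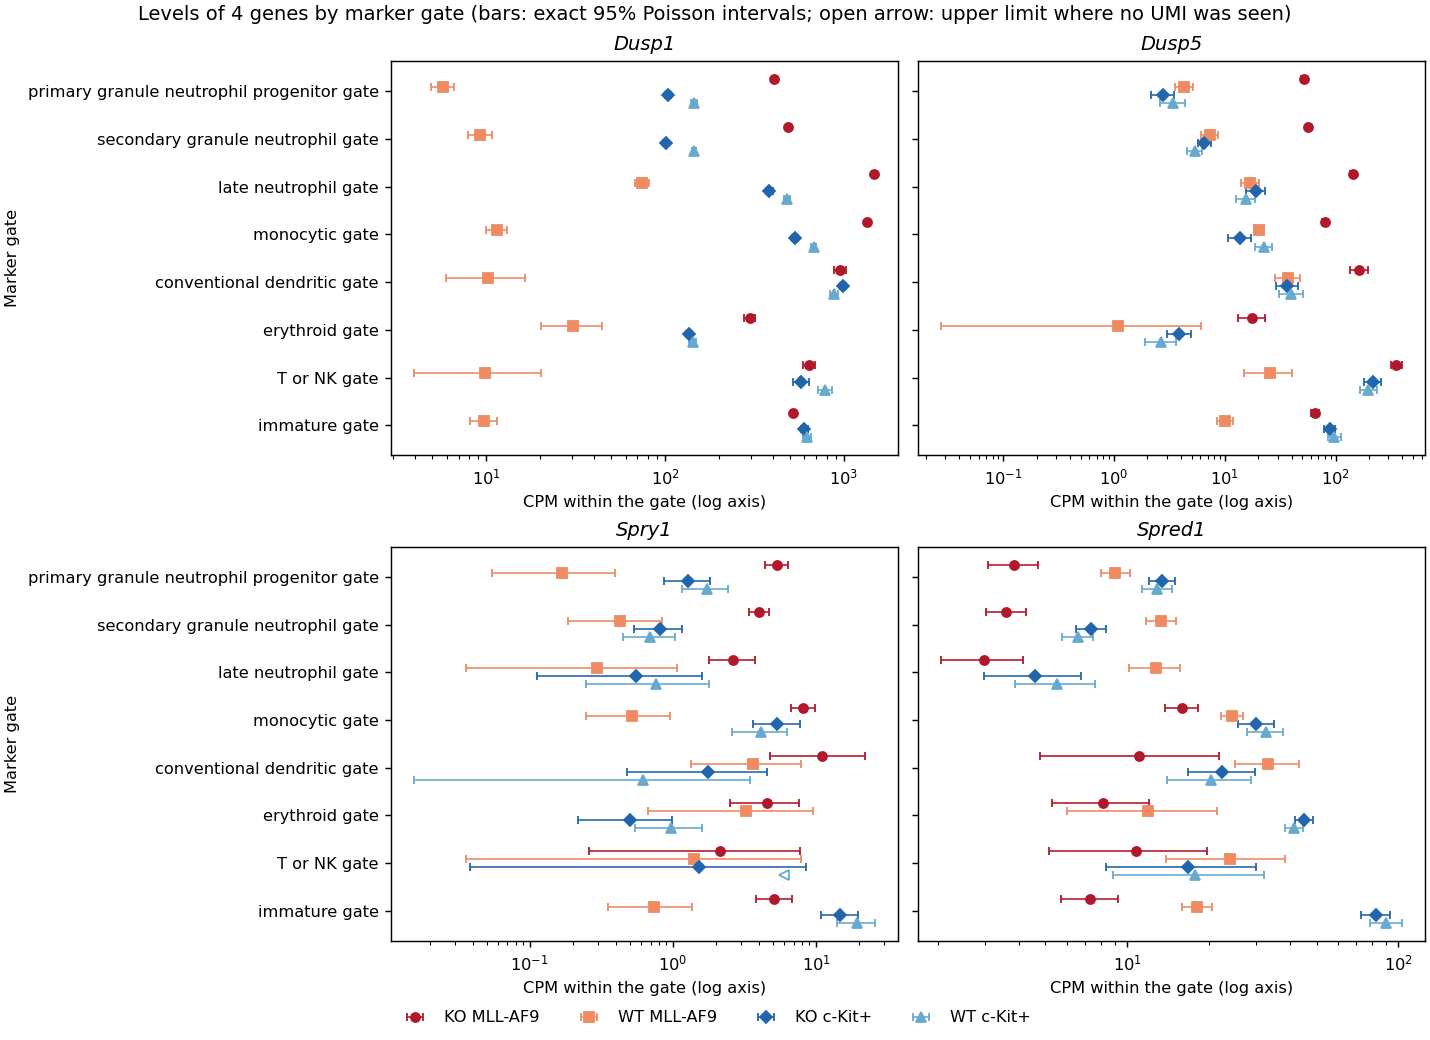
Levels of Dusp1, Dusp5, Spry1 and Spred1 in the 8 gates, in CPM on log axes with exact 95% Poisson intervals; an open arrow marks the upper limit where no UMI was seen. For Dusp1 the WT MLL-AF9 squares lie between 5.71 and 74.5 CPM, below every other library, and for Spred1 the KO MLL-AF9 circles are the lowest in each gate.

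Gates separated the members from each other. Dusp6 had a log2 ratio of 1.78 in the primary granule gate but -0.19 in the late neutrophil gate, where it was at 61.0 CPM in KO and 69.6 CPM in WT MLL-AF9 cells, a ratio of 0.876 (0.779 to 0.986). Spry2 had ratios between 0.810 and 1.28 in the neutrophil and monocytic gates, and a higher one in the T or NK gate, at 158 CPM in KO against 29.6 CPM in WT MLL-AF9 cells, a ratio of 5.34 (3.37 to 8.89). Dusp10 in that gate was at 157 CPM in KO and 8.45 CPM in WT, and Dusp5 at 353 CPM in KO and 25.3 CPM in WT. Only 120 cells stood behind each of these gate values. Per 100 UMIs of Dusp1, KO MLL-AF9 cells held 5.94 UMIs of Dusp5 in the monocytic gate and 55.4 in the T or NK gate. These transcripts were thus not in the same ratio in every gate.

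Spred1 was lowest in KO MLL-AF9 among the 4 libraries in 8 of 8 gates, a count for which the share of all genes was not worked out. Against WT MLL-AF9 alone, 36.1% of all genes were lower in KO MLL-AF9 cells in 8 of 8 gates. In the immature gate it was at 7.30 CPM in KO and 18.1 CPM in WT MLL-AF9 cells, against 82.7 CPM in KO and 90.0 CPM in WT c-Kit+ cells. In the secondary granule, late neutrophil, conventional dendritic and T or NK gates WT MLL-AF9 cells had the highest level of the 4 libraries. In the late neutrophil gate the levels were 2.96 CPM in KO and 12.7 CPM in WT MLL-AF9, and 4.57 CPM in KO and 5.50 CPM in WT c-Kit+ cells. The intervals of the KO over WT MLL-AF9 ratio included 1 in the erythroid (0.323 to 1.53) and T or NK (0.184 to 1.04) gates.

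**Figure D5:**
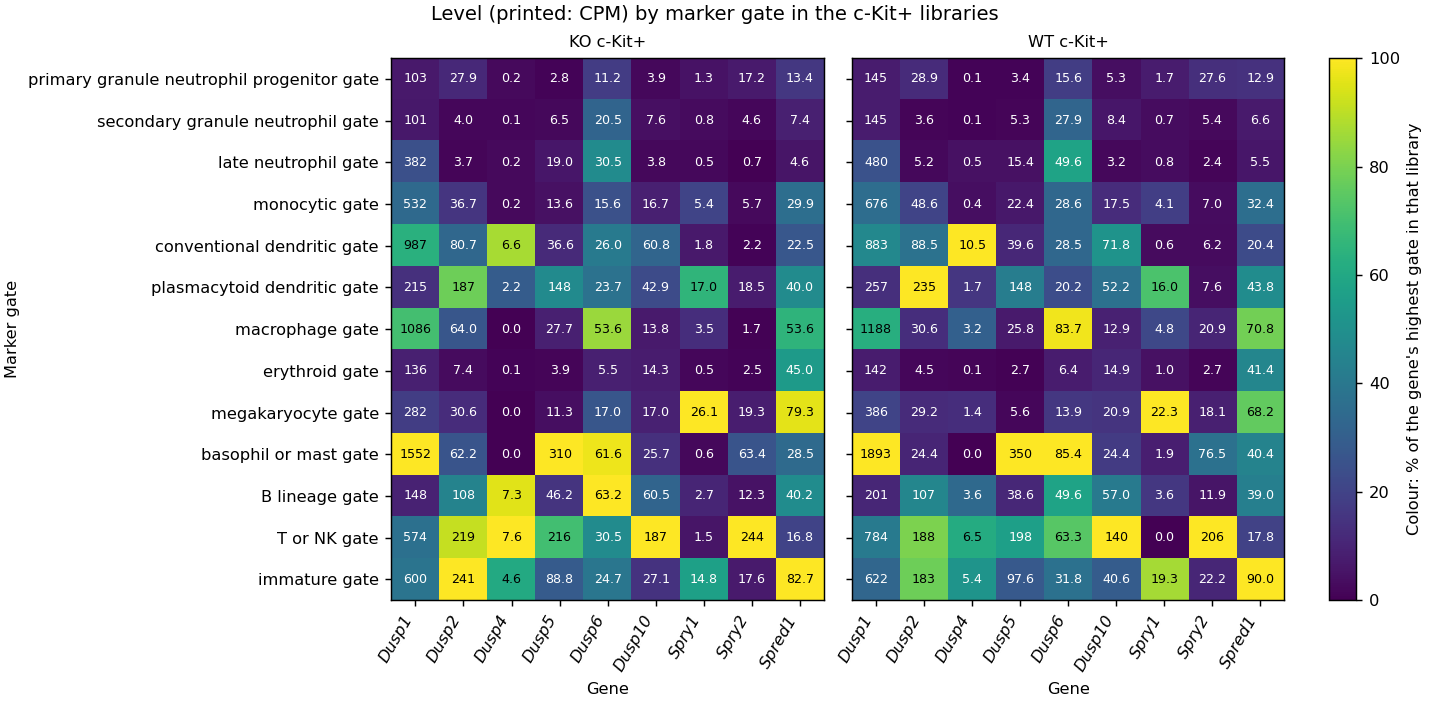
Level in CPM (printed) of each gene in the 13 marker gates of the c-Kit+ libraries, coloured as a percent of the gene's highest gate in that library. Dusp1 and Dusp5 peak in the basophil or mast gate, Dusp10 and Spry2 in the T or NK gate and Spred1 in the immature gate, in both libraries.

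The normal libraries filled 13 gates and shared the highest gate for 6 of the 9 genes, but not for Dusp2, Dusp4 and Dusp6. Dusp1 peaked in the basophil or mast gate (1552 CPM in KO and 1893 CPM in WT c-Kit+ cells), as did Dusp5 (310 CPM in KO and 350 CPM in WT). In that gate the immediate early sum was also the highest of the 13, at 21711 CPM in KO and 24300 CPM in WT cells. Dusp2 was high in the immature (241 CPM in KO, 183 CPM in WT), T or NK (219 CPM in KO, 188 CPM in WT) and plasmacytoid dendritic gates (187 CPM in KO, 235 CPM in WT). Dusp10 was highest in the T or NK gate (187 CPM in KO and 140 CPM in WT), as was Spry2 (244 CPM in KO and 206 CPM in WT). Spry1 was highest in the megakaryocyte gate (26.1 CPM in KO and 22.3 CPM in WT), and Spred1 in the immature gate. Dusp6 was highest in the B lineage gate in KO c-Kit+ cells (63.2 CPM in KO, 49.6 CPM in WT) and in the basophil or mast gate in WT c-Kit+ cells (61.6 CPM in KO, 85.4 CPM in WT), and in the T or NK gate it was at 30.5 CPM in KO and 63.3 CPM in WT. Dusp4 had its highest levels in T or NK (7.62 CPM in KO) and conventional dendritic gates (10.5 CPM in WT). Across the 13 gates the levels in the KO and WT c-Kit+ libraries correlated with a Pearson r on the log2 scale from 0.84 for Dusp4 to 0.99 for Dusp1, as a description over gates of 2 libraries. Dusp1 was lower in KO than in WT c-Kit+ cells in 12 of 13 gates and Dusp6 in 10 of 13. The share of all genes at these counts was not worked out. No member was on the same side in 13 of 13 gates, where 0.691% of all genes were lower and 0.931% higher throughout.

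The members did not form 1 pattern across cell types. Over 44 gates of 4 libraries, which share their library's cells and depth, the most alike pair was Dusp2 and Dusp10 (Pearson r of log2 levels of 0.83, and 0.77 with each library's mean removed), followed by Dusp4 and Dusp10 (0.80 and 0.76). Dusp1 and Spred1 had an r of -0.02, and 0.18 with the library means removed. Among 9896 other genes, those most like the mean of the 9 were Zbtb10 (r of 0.89), Zfp36l2 (0.87), Rbm39 (0.87), Arl13b (0.85) and D430013B06Rik (0.84). Zfp36l2, which codes for an RNA-decay protein, kept an r of 0.92 with the library means removed, and was at 256 CPM in KO MLL-AF9, 186 in WT MLL-AF9, 190 in KO c-Kit+ and 199 in WT c-Kit+ cells.

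Other parts of the pathway gave the following values in KO against WT MLL-AF9 cells, for genes averaging at least 5 CPM. Over all such genes 5.5% were higher and 12.6% lower by 2-fold or more. A gene can pass that limit through the library in which it is high, so these counts are a description. Of 9 other dual-specificity phosphatase genes, 3 were higher by 2-fold or more and 3 lower, with a median log2 ratio of -0.52. Dusp16, which acts on JNK, was at 81.5 CPM in KO and 7.20 CPM in WT (3.33), and Dusp18 had 3.09, while Dusp7, a cytoplasmic ERK phosphatase, was at 8.05 CPM in KO and 23.9 CPM in WT (-1.46). Of the other Sprouty and Spred genes only Spred2 reached the level limit (0.36). Of 19 other feedback regulators 8 were higher and 0 lower, with a median of 0.62, among them Trib1 (4.93), which directs protein breakdown, Zfp36 (3.94), which destabilises cytokine transcripts, Ier3 (3.74) and Rgs1 (3.20). Zfp36 and Ier3 are also in the immediate early list. Dusp18 (12.6 CPM in KO, 0.602 CPM in WT) and Rgs1 (25.2 CPM in KO, 1.84 CPM in WT) reached the level limit through the KO library.

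Genes of the RAS to ERK, JNK and p38 cascades had the following values in the same pair. They are not set against the members, which were chosen by this ratio. Over all genes averaging at least 5 CPM, 5.5% were higher and 12.6% lower by 2-fold or more. Of 23 genes of the RAS to ERK cascade 0 were higher and 2 lower by 2-fold or more, with a median of -0.09, and the 2 were Rps6ka3 (-1.32), an ERK-activated kinase, and the scaffold Ksr1 (-1.20). Of 17 genes of the JNK and p38 cascades 0 were higher and 2 lower, with a median of -0.41, namely Map2k6 (-1.29), which activates p38, and Mapkapk3 (-1.03). Of 17 transcription targets of the cascades 12 were higher and 0 lower, with a median of 3.60, led by Fosl1 (140 CPM in KO and 0.409 CPM in WT), Fosb (6.02), Egr1 (5.80) and Atf3 (222 CPM in KO and 3.60 CPM in WT). Of these 12, Fos, Fosb, Jun, Junb, Egr1, Ier2 and Atf3 are also in the immediate early list summed above, so the lists overlap. Fosl1 and Atf3 reached the limit through the KO library. Of 13 ligand genes in the files 4 averaged at least 5 CPM, the cytokines Osm (4.43), Il1b (4.29), Tnf (2.31) and Csf1 (1.33), all higher in KO; Csf1 (9.56 CPM in KO, 3.19 CPM in WT) reached that average through the KO library. Kitl (-0.15) and Flt3l (-0.22) were below the limit. Of 11 receptors 2 were higher (Cd14, 3.87, and Tlr2, 1.76, which sense bacterial products) and 2 lower (Flt3, -2.32, and Kit, -1.08). Flt3 (4.11 CPM in KO, 24.5 CPM in WT) reached the limit through the WT library. In KO against WT c-Kit+ cells 0 genes of these lists were past 2-fold in either direction.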

How the data were processed

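RNA of single cells was counted in 4 libraries. Raw UMI counts by gene and barcode were deposited, made with Cell Ranger 7.1.0 against mm10 per the submitters' processing notes; the gene annotation is not given in the sources used here. Positions are from GENCODE M21 (GRCm38), matched by gene ID.

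Counts were summed over kept cells and divided by the library's sum (CPM). Scrublet doublets were kept and removed in an alternative. Ratios are log2 of CPM plus 1. Intervals are exact at 95% (Poisson for levels, conditional binomial for ratios, Clopper-Pearson for shares). With 1 library per group no test was made. Genes named outside the 9 were up to 4 per pathway list with the largest leukaemia ratios, and the 5 most alike genes. The members and lists were chosen with earlier results of these data known. Ratios and their intervals were checked on simulated Poisson counts. These hold no variation between libraries, mice or cells, so the check covers counting error only. Alternatives were other cell filters, scalings (median-ratio size factors, TMM in edgeR 4.0.16, library sums without stress, haemoglobin, ribosomal and mitochondrial genes), pseudocounts of 0.1 and 5 CPM, equal weight per cell, thinned cells, matched gate weights, 4 markers per gate, other level limits and, added after the gates had been seen, gated cells alone. Python 3.11.15, scanpy 1.11.5 and scipy 1.17.1 were used.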

Additional observations from a re-analysis of the deposited data

Results flagged for a closer look

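In 5 genes the KO over WT log2 ratio was above 0 in the leukaemia pair and below 0 in the c-Kit+ pair, with counting intervals that leave out a ratio of 1 in each pair. The difference of the ratios, leukaemia minus c-Kit+, was 5.90 for Dusp1, 2.73 for Dusp5, 1.60 for Dusp6, 1.89 for Dusp10 and 0.48 for Spry2. With 1 library per group the difference was not tested. The leukaemia ratios are those by which the set was chosen, and the c-Kit+ ratio of Dusp10 changed direction with equal weight per cell (0.03).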

How the results depend on the processing

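No paired analysis was possible because each group has 1 library. Of 36 ratios (9 genes in 4 comparisons), 15 were past 2-fold. These 15 kept their direction under the 12 alternatives, 10 of them past 2-fold in each. Of the 21 others, 5 changed direction under at least 1. In KO over WT MLL-AF9, Dusp6 fell short of 2-fold with equal weight per cell, thinned cells or matched gates (lowest 0.81), and Spry1 with 5 CPM added (0.85). With 5 CPM added, equal weight per cell or thinned cells, neither Spry1 in WT MLL-AF9 over WT c-Kit+ (to -0.38) nor Dusp6 in KO MLL-AF9 over KO c-Kit+ (to 0.72) was past 2-fold. Dusp5 in WT MLL-AF9 over WT c-Kit+ passed 2-fold under 5 alternatives (to -1.32). The count of genes lower in KO over WT MLL-AF9 was 0, in place of 1, with median-ratio size factors and with 5 CPM added. In KO MLL-AF9 over KO c-Kit+ it was 2 with 0.1 CPM added and with equal weight per cell. Spred1 was higher in 1 of 8 gates when 4 markers were required. Size factors moved the median of all genes by 0.34 in KO over WT MLL-AF9 and by -0.34 in WT MLL-AF9 over WT c-Kit+.

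Without a level limit, the percent of genes higher and lower by 2-fold was 2.42 and 5.18 in KO over WT MLL-AF9, 7.92 and 3.22 in WT MLL-AF9 over WT c-Kit+ and 5.83 and 5.52 in KO MLL-AF9 over KO c-Kit+, and 0.019 were lower in KO over WT c-Kit+. At a mean of 25 CPM, 8.34 were lower in KO over WT MLL-AF9, and 0.0193 higher and 0 lower in KO over WT c-Kit+. The causes were not tested. Leaving out cells outside the gates, chosen after seeing the data, changed no 2-fold call. Values of Dusp4, Spry1 and of gates under 150 cells are limited by their counts.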
